A study of Mus musculus with 13 samples.

Results

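Antigen presentation and interferon-response genes were compared between intestinal stem cells, their descendants and skin stem cells of the mouse. The genes were taken by symbol from the platform annotation: all names that begin with H2-, all names that begin with Irf, Stat, Gbp or Ifit followed by a number, and 10 named genes of peptide processing and class II transcription. Of 17097 genes with a probe set that names only that gene, 61 were members, 54 by the name patterns and 7 by name. B2m, Tap1 and Tap2 were not analysed here. Each gene is given by the probe set with the highest mean, and 27 members had several. Irf2bp1, Irf2bp2 and Irf2bpl entered by the start of their symbols only, since they bind an Irf protein and are not Irf genes.

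The study profiled RNA of 4 cell populations on 13 Affymetrix HT MG-430 PM arrays, and by the design text each array combined 3 mice. All mice were C57BL/6 and carried Lgr5-EGFP-ires-CreERT2, in which GFP follows the Lgr5 promoter. No treatment was given, and no source used here states the age of the mice. The groups were hair follicle cells sorted as GFPdim from skin (3 arrays), epithelial villus cells (Villus, 3 arrays), sorted GFPdim cells of the small intestine (GFP_Low, 3 arrays) and sorted GFPbright cells of the small intestine (GFP_High, 4 arrays), which are the intestinal stem cells. By the methods RNA of all 4 populations was taken from cells after FACS, with no marker named for the gate of the Villus cells. Groups follow the titles, since a field on the Lgr5 level opposes the title on 3 GFP arrays. Lgr5 had intensities of 479, 539.7 and 687 on hair follicle arrays, 6.8, 4.8 and 6.6 on Villus arrays, 12.6, 66.1 and 14.0 on GFP_Low arrays, and 793, 533, 577 and 697 on GFP_High arrays. Krt14, a keratin of basal skin cells, had 3947 to 7179 on hair follicle arrays and at most 6.4 elsewhere, and Alpi, an enterocyte enzyme, had 6804 to 7291 on Villus arrays and at most 1240.0 elsewhere. Some titles carry a code, and one code is shared by hair follicle 2, GFP_Low 2 and GFP_High 3. No source used here states what the code stands for.

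Class I molecules, made of an H2 heavy chain and beta-2 microglobulin, show peptides from inside the cell to CD8 T cells. Their peptides come from the immunoproteasome (Psmb8, Psmb9 and Psmb10) and are loaded with the help of tapasin (Tapbp). Class II molecules, pairs of an alpha and a beta chain guarded by the invariant chain Cd74 and loaded by H2-DM, show peptides from outside the cell to CD4 T cells, and Ciita switches their genes on. Interferons act through Stat and Irf factors on target genes such as the Ifit and Gbp families, and the epithelium of the small intestine is known for class II molecules and for a response to lambda interferons.

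Values are intensities on a linear scale, normalised by the authors. Smell, pheromone and bitter taste receptors, expected to be silent in these cells, gave the level of a probe set without signal. The 95th percentile of their 86 probe sets was an intensity of 7.9, called the receptor level below. At least 1 group mean exceeded it for 53 members (86.9%, against 69.8% of all genes), and for 8 none did. Differences are log2 with the standard error (SE) of a limma fit over all 13 arrays, and a gene was called at an adjusted p under 0.05 over all 17097 genes. Where all arrays of the dimmer group lay at or below the receptor level, a bound is given against that level.

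The members lie mostly in clusters. Of the 61, 28 lie on chromosome 17 (GRCm38.p6, RefSeq), where 10 genes of the class II group span chr17:34092379-34344645, and the 5 Ifit members lie on chromosome 19. Promoter windows of 300 bases, 250 before and 50 after the start, were searched for 48 members. The search covered both strands and looked for the core of the interferon-stimulated response element (ISRE, GAAANNGAA), the gamma-activated site (GAS, TTCNNNGAA) and the core of the Y box of class II promoters (GATTGG). The first 2 share the letters GAA and can overlap. The Y box core was in the windows of 19 of the 48 members (39.6%, against 18.2% of 27025 genes) and in 16.1% of all 32851 windows. It was in all 8 windowed genes of the class II chain and accessory groups, namely H2-Aa, H2-Eb1, H2-Eb2, H2-DMa, H2-DMb1, H2-DMb2, H2-Oa and H2-Ob, and in H2-K1 and H2-D1. The ISRE core was in 13 of 48 members (27.1%, against 9.76% of genes and 8.56% of windows), among them 4 of 4 Gbp and 4 of 5 Ifit members with a window. The GAS element was in 9 members (18.8%, against 9.55% of genes and 8.3% of windows). A match is a description of the letters and no measure of binding.

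The promoters of 3 class II genes are shown because these genes moved together across arrays, as described below. Capitals mark the Y box core on either strand. It begins 49 bases before the start in H2-Aa (chr17:34287774-34288073, minus strand), 62 before in H2-DMb1 (chr17:34152941-34153240, plus strand) and 60 and 35 before in H2-Eb1 (chr17:34305617-34305916, plus strand).
H2-Aa: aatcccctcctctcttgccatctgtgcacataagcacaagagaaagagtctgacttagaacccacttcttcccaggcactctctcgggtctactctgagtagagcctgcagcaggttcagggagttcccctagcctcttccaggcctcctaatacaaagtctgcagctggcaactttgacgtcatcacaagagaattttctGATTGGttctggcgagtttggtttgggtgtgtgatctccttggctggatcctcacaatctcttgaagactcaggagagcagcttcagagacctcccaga
H2-Eb1: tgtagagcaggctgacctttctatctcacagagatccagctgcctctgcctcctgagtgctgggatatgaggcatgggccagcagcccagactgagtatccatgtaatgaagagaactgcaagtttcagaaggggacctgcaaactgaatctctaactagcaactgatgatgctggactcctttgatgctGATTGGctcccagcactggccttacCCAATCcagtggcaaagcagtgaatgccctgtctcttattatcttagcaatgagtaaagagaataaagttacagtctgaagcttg
H2-DMb1: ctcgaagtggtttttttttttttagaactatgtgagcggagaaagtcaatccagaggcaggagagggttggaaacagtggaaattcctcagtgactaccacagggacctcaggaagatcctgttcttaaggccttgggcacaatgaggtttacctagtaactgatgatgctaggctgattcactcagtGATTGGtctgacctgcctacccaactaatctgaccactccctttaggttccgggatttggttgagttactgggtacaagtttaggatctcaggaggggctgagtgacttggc

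The promoters of Ifit1, Ifit3 and Gbp2 are shown as windows that hold the ISRE core, of genes higher in Villus than on all other arrays. For Gbp2 the bound against GFP_High was only 2.72-fold. Other genes higher in Villus had no match, such as Irf7. Capitals mark the ISRE core, which in all 3 lies on the minus strand. It begins 109, 103 and 84 bases before the start in Ifit1 (chr19:34640639-34640938, plus strand), where the first 2 matches overlap. It begins 155, 121 and 102 bases before the start in Ifit3 (chr19:34583279-34583578, plus strand) and 58 before in Gbp2 (chr3:142620413-142620712, plus strand).
Ifit1: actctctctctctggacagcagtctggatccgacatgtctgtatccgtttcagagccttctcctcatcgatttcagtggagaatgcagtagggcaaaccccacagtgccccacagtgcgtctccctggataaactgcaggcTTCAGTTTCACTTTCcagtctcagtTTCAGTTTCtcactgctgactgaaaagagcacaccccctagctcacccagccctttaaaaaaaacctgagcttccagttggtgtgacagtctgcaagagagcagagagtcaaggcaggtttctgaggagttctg
Ifit3: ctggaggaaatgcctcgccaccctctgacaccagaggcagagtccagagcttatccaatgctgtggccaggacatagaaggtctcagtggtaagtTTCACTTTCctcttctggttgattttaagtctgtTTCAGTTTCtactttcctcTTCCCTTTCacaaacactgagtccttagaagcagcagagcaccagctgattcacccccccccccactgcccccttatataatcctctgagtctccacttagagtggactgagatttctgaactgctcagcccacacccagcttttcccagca
Gbp2: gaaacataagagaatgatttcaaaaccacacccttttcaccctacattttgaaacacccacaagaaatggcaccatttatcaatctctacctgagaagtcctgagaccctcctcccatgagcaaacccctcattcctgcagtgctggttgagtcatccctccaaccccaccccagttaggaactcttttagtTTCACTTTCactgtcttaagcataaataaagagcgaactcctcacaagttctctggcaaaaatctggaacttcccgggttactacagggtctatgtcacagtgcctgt

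The members were highest in Villus. The Villus mean was the highest of the 4 group means for 47 of 61 members, and the hair follicle mean was the lowest for 35. Both counts were made for members only, with no share over all genes to set beside them. They include the 8 members with no group mean above the receptor level. All 3 Villus arrays exceeded the other 10 for 33 members (54.1%, against 15.7% of all genes), and all 3 hair follicle arrays lay below the other 10 for 14 (23%, against 14.5% of all genes). Against GFP_High, 38 members were called higher in Villus and 6 lower, where 22.6% and 26.3% of all genes were called. The median member difference was 1.22, against 0.02 over all genes. Against GFP_Low, 36 were called higher in Villus and 3 lower, where 20.8% and 21.3% of all genes were called, with a median of 1.54 against 0.02. In hair follicle cells, 4 members were called higher and 43 lower than in Villus (6.56% and 70.5%, against 26.9% and 27.4% of all genes), with a median of -1.93 against -0.04. Against GFP_High, 5 members were called higher and 20 lower in hair follicle cells. The lower share of 32.8% was near the 29.1% of all genes, the higher share was 8.2% against 19.4%, and the median was -0.28 against -0.06 over all genes. Between GFP_Low and GFP_High few members were called, 5 higher and 1 lower, where 6.32% and 10.4% of all genes were called, and the medians were 0.01 and -0.04. Under quantile normalization the share of higher among all called genes in that comparison was 49.46%, against 37.85%, with 5 and 1 members called again. With the title code as a replicate block 6 members were called higher and 2 lower, since Psmb9 (0.52, limma adjusted p = 0.042) and Ifit2 (-1.48, limma adjusted p = 0.025) passed. Without the 3 arrays whose level field opposes the title, Irf7 (0.73, limma adjusted p = 0.11), H2-Q1 (0.41, adjusted p = 0.45), Stat3 (0.16, adjusted p = 0.77) and Ifit3 (0.16, adjusted p = 0.65) were no longer called, and Ifit1bl1 was (1.94, adjusted p = 0.014). Counts over members that passed the receptor level in one of the groups compared were close to these, such as 35 higher and 6 lower of 52 for Villus against GFP_High. In RNA of pooled cells, fewer cells of a type and less RNA per cell cannot be told apart.

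**Figure D1:**
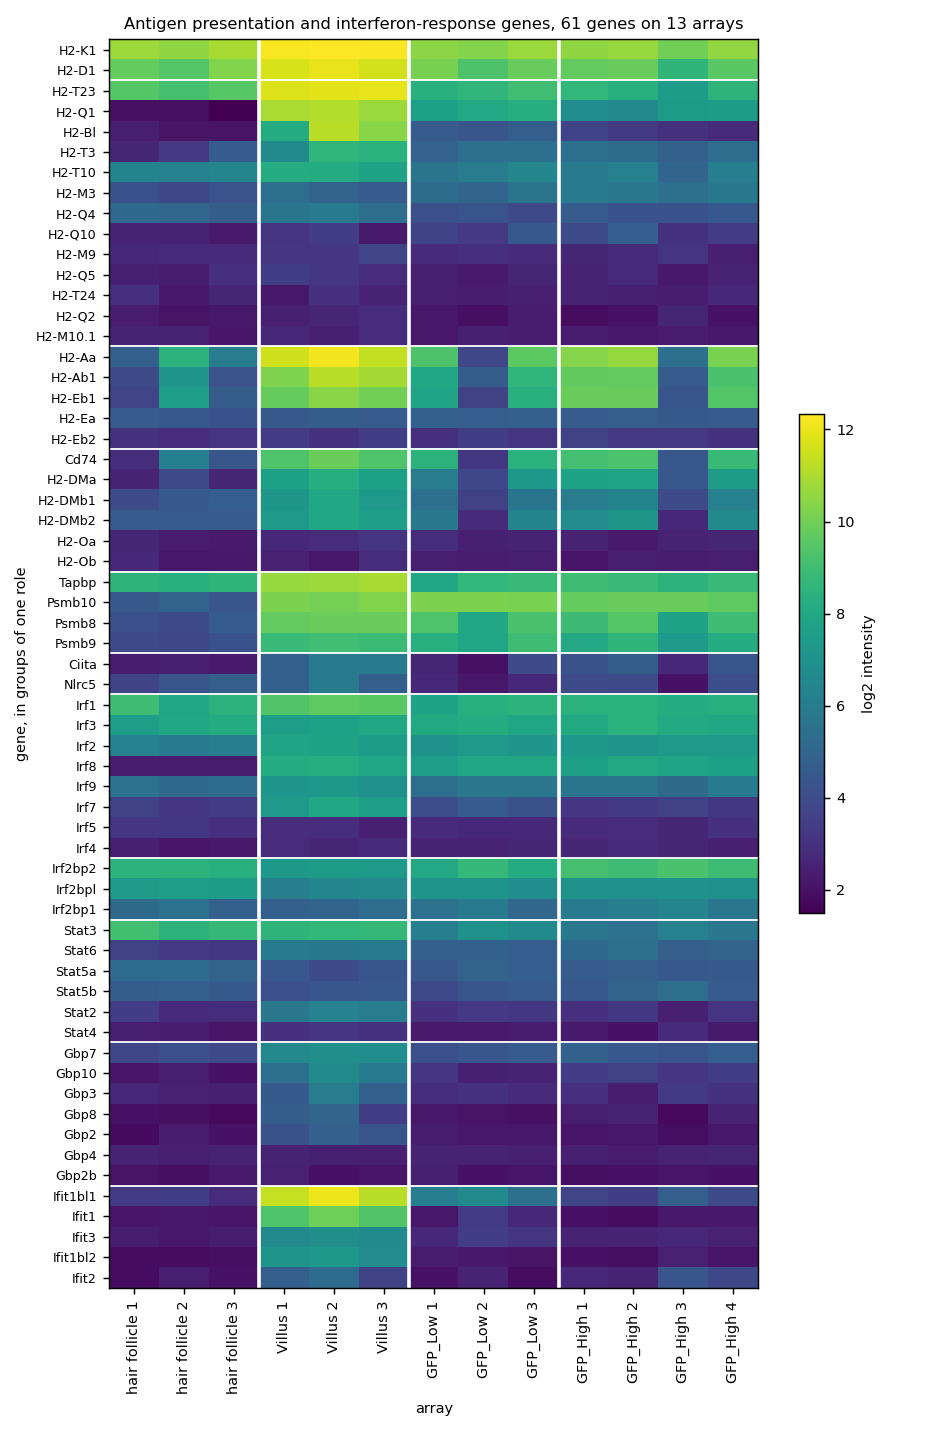
Log2 intensity (colour) of the 61 members (rows, in groups of one role) on the 13 arrays (columns, in the order hair follicle, Villus, GFP_Low, GFP_High). Villus arrays are brightest in most rows, and GFP_Low 2 and GFP_High 3 are dark in the class II rows.

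The classical class I heavy chains were high in all 4 groups and highest in Villus. H2-K1 averaged 1697 ± 230.3 in hair follicle cells, 5003 ± 154 in Villus, 1459 ± 190.3 in GFP_Low and 1427 ± 254 in GFP_High (SD, n = 3, 3, 3 and 4). Villus exceeded GFP_High by 1.83 (SE 0.16, limma adjusted p = 2.0e-07). H2-D1, the other classical heavy chain of this strain, averaged 3472 ± 485 in Villus and 724 ± 237 in GFP_High, a difference of 2.33 (SE 0.29, limma adjusted p = 8.8e-06). Neither was called between hair follicle and GFP_High or between GFP_Low and GFP_High. Several probe sets read H2-K1 and H2-D1 together and were left out. Heavy chain genes of the H2 family are near-identical copies of each other, and whether a probe set also reads a neighbour was not tested.

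The non-classical heavy chains took sharply different courses. H2-T23 encodes Qa-1, a ligand of inhibitory receptors on natural killer and T cells. It had 722, 569.8 and 734 on hair follicle arrays, 3437, 3798 and 3953 on Villus arrays, 332, 395 and 513 on GFP_Low arrays, and 403, 329.8, 177 and 369 on GFP_High arrays. It was higher by 3.61 (SE 0.24, limma adjusted p = 1.6e-08) in Villus and by 1.14 (SE 0.24, limma adjusted p = 0.0012) in hair follicle cells than in GFP_High, and none of these 3 groups overlapped another. On a further, dimmer H2-T23 probe set the difference was 4.18 in Villus and only 0.13 in hair follicle cells. H2-Q1 stood at 3.9, 3.9 and 2.8 in hair follicle cells, below the receptor level, at 1975, 2169.7 and 1652 in Villus, at 198, 262 and 304 in GFP_Low and at 109.7, 95.5, 171 and 176 in GFP_High. The 4 groups did not overlap. H2-Q1 was thus at least 16.9-fold lower in hair follicle cells than in GFP_High, 3.85 (SE 0.23) higher in Villus than in GFP_High, and 0.91 (SE 0.23, limma adjusted p = 0.014, and 0.071 without GFP_Low 3) higher in GFP_Low than in GFP_High. H2-Bl was highest in Villus and varied there, with 287, 2395 and 1376, against 24.6, 20.3 and 27.1 in GFP_Low and 12.9, 10.1, 8.5 and 6.8 in GFP_High. Villus exceeded GFP_High by 6.72 (SE 0.50), and GFP_Low lay above GFP_High without overlap but was not called (1.35, SE 0.50, limma adjusted p = 0.086). H2-T3, the TL antigen that binds CD8 alpha homodimers on intraepithelial lymphocytes, had 6.3, 9.7 and 25.1 in hair follicle cells, 103, 398 and 343 in Villus, 29.4, 43.5 and 43.8 in GFP_Low, and 43.6, 40.1, 28.7 and 41.1 in GFP_High. It was higher in Villus by 2.67 (SE 0.47) and lower in hair follicle cells by 1.72 (log2 difference -1.72, SE 0.47), both against GFP_High. All 4 H2-T3 probe sets had a higher mean in Villus than in GFP_High. On 1 of them Villus 1 did not show the rise, with 8, 732.5 and 434.2 in Villus against 38.5, 29.8, 7.8 and 9.3 in GFP_High. H2-M3, which presents formylated bacterial peptides, went the other way from most of the group, with 41.8, 30.8 and 24.8 in Villus against 64.5, 58.4, 43.2 and 58.9 in GFP_High, and fell by 0.81 (SE 0.21, limma adjusted p = 0.0046). Of the 13 non-classical heavy chains, 10 were called higher and 1 lower in Villus than in GFP_High, with 2 not called. Of all genes 22.6% were called higher and 26.3% lower. H2-T24, H2-M10.1 and H2-Q2 stayed at or near the receptor level throughout. The 10 called higher include H2-M10.1 (0.42) and H2-Q2 (0.54), for which no group mean passed that level.

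The immunoproteasome subunits were low in hair follicle cells and within a smaller range among the intestinal groups. Psmb10 had 23.2, 30.9 and 20.2 in hair follicle cells, 1162, 1082 and 1259 in Villus, 1188, 1169.6 and 1154 in GFP_Low, and 872, 899.7, 955 and 809 in GFP_High. Hair follicle cells were lower than GFP_High by 36.2-fold (log2 difference -5.18, SE 0.14, limma adjusted p = 8.6e-13). Psmb8 averaged 19.4 ± 5.25 in hair follicle cells, 907 ± 52.6 in Villus, 497 ± 219 in GFP_Low and 476 ± 202 in GFP_High. Psmb9 averaged 16.1 ± 2.35, 481 ± 29.5, 350.3 ± 138 and 276 ± 91.1 in the same groups. The differences of hair follicle cells from GFP_High were -4.53 (SE 0.38) and -4.04 (SE 0.27), and no hair follicle array reached an intestinal one for any of the 3. These values are of the probe set used for each gene. Another Psmb9 probe set did not show the drop, with 103, 108 and 112 in hair follicle cells and 92.3, 108, 59.7 and 97.9 in GFP_High. The remaining Psmb9 probe set lay below the receptor level on all arrays of both groups. Villus exceeded GFP_High for the 3 subunits by 0.40 (SE 0.14), 1.05 (SE 0.38) and 0.87 (SE 0.27) for Psmb10, Psmb8 and Psmb9, all called higher. These 3 calls were close to the threshold, since adjusted p reached 0.094 for Psmb10 (without Villus 1 or 3 or GFP_High 1 or 4), 0.086 for Psmb8 (without any Villus array or GFP_High 3) and 0.054 for Psmb9 (without Villus 2). Tapbp differed from them. It had 371, 318 and 389 in hair follicle cells, 1643, 1715 and 1925 in Villus, 249.9, 408 and 450 in GFP_Low and 505, 446, 360.2 and 439.6 in GFP_High, a rise of 2.02 (SE 0.19, limma adjusted p = 4.0e-07) in Villus and a difference of -0.28 (SE 0.19, adjusted p = 0.25) in hair follicle cells that was not called. Other genes of class I processing, on a list of 14 measured, were called higher in Villus than in GFP_High for 2 and lower for 7. Of all genes 22.6% were called higher and 26.3% lower in Villus. The constitutive subunits Psmb7 and Psmb5 fell by 0.99 (SE 0.23) and 0.84 (SE 0.15) there. In hair follicle cells 10 of the 14 were called lower than in GFP_High, against 29.1% of all genes. Among the 10 were the proteasome activators Psme2 and Psme1, which fell by 2.51 (SE 0.15) and 2.04 (SE 0.11). The trimming peptidase Erap1, also among them, fell by 3.08 (SE 0.18).

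Among the class II genes the arrays of one group differed widely. H2-Aa, the alpha chain of I-A, had 28.3, 348 and 68.4 on hair follicle arrays and 2970.4, 4594 and 2617 on Villus arrays. It had 630.3, 13.7 and 782 on GFP_Low arrays, and 1309, 1563, 43.3 and 1126 on GFP_High arrays. GFP_Low 2 and GFP_High 3, which share a title code, were far below the other 5 GFP arrays. H2-Ab1, the beta chain of I-A, had 25.7 and 24.6 on these 2 arrays and 254 to 846 on the other 5. H2-Eb1, the beta chain of I-E, had 12.5 and 19.5, against 229 to 937. Cd74 had 9.4 and 22.1, against 338 to 606. H2-DMb2, a beta chain of the peptide loader, had 6.9 and 6.5, both below the receptor level, against 58.2 to 150.3. H2-DMa and H2-DMb1 behaved likewise. For these 7 genes the mean of the other 3 GFP_High arrays exceeded GFP_High 3 by 4.87-fold (H2-DMb1) to 43.0-fold (H2-Eb1), and the mean of the other 2 GFP_Low arrays exceeded GFP_Low 2 by 3.87-fold (H2-DMb1) to 51.3-fold (H2-Aa). Both arrays lay below the other 5 for 15 members (24.6%), against 3.22% of all genes, a count made after the values were seen and given with no test. Besides the 7 class II genes, these were H2-K1, H2-D1, H2-Q10, H2-Q5, H2-T24, Psmb8, Psmb9 and Nlrc5, the transactivator of class I genes. Psmb8 had 246 and 213 on the 2 arrays, against 485 to 704 on the other 5. Ciita had 3.9 on GFP_Low 2 and 6.5 on GFP_High 3, below the receptor level, against 6.1 and 15.4 on the other GFP_Low arrays and 18.3, 25.5 and 19.6 on the other GFP_High arrays.

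The Ifit genes did not share this pattern. Ifit1bl1 had 104 on GFP_Low 2 and 27.6 on GFP_High 3, the highest array of each group, and Ifit2 had 5.9 and 20.5, again the highest of each group. Of the wider lists, 4 of 41 other interferon-stimulated genes were low on both arrays, namely the GTPases Igtp, Irgm1 and Ifi47 and the chemokine Cxcl9. Igtp had 31.8 and 34.6 on these arrays and 74.4 to 120.3 on the other 5. Of 15 receptor and signalling genes, Ifnar1, Ifngr2 and Tyk2 were low on both, and Ifngr2, the second chain of the interferon gamma receptor, had 161 and 96.4. None of 18 genes of class II processing and transcription was. Igtp, Ifngr2 and the others of these lists were singled out by this count after their values were seen.

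**Figure D2:**
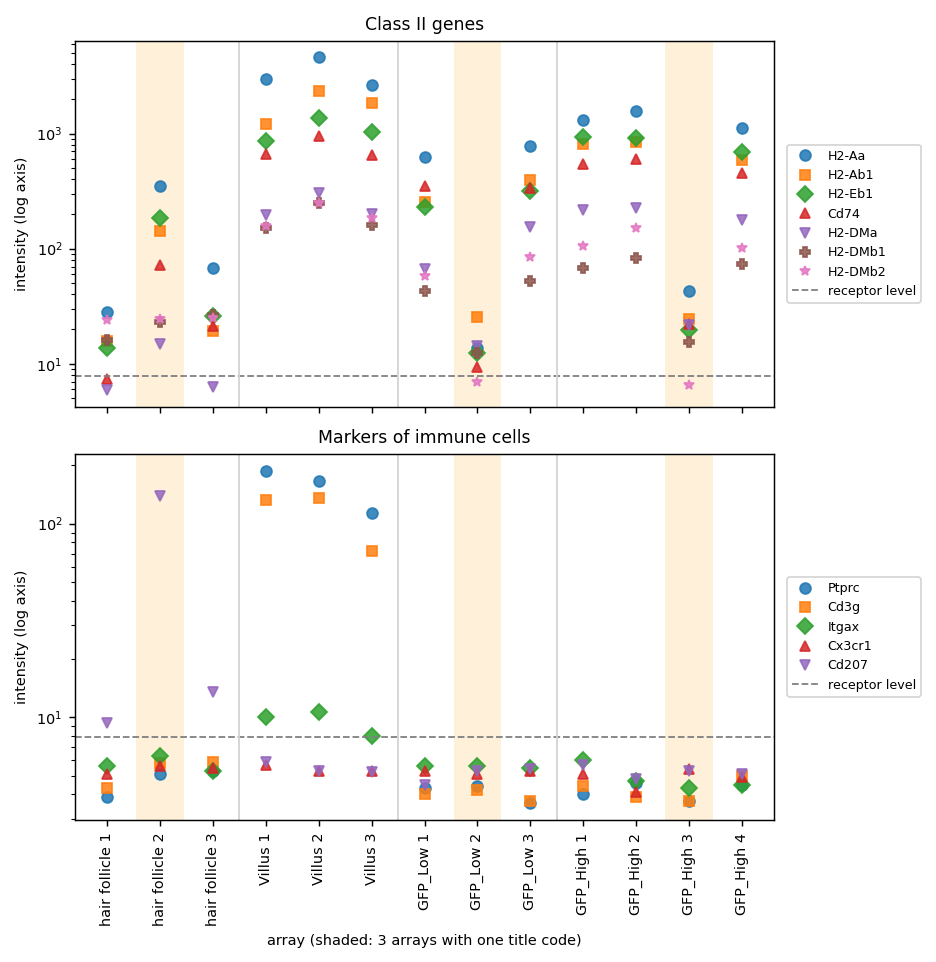
Intensity (log axis) on each of the 13 arrays of 7 class II genes (upper panel) and 5 immune cell markers (lower panel); shaded arrays share one title code and the dashes mark the receptor level of 7.9. GFP_Low 2 and GFP_High 3 stand below the other GFP arrays in the upper panel. Ptprc, Itgax and Cx3cr1 lie below the receptor level on all GFP arrays, so the lower panel cannot show a drop of these markers there. Hair follicle 2 is the highest hair follicle array for Cd207 and for most class II genes.

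With this spread, no class II gene was called between GFP_Low and GFP_High. H2-Aa differed by -1.57 (SE 1.43, limma adjusted p = 0.56) and Cd74 by -1.22 (SE 1.31, limma adjusted p = 0.64). This code and 2 others each name 1 GFP_Low and 1 GFP_High array, so arrays can be set side by side within a code. H2-Aa was lower in GFP_Low in 3 of 3 such pairs, by 0.53 to 1.66 on the log2 scale. H2-Eb1, Cd74, H2-DMa, H2-DMb1 and Ciita were also lower in 3 of 3, while H2-Ab1 and H2-DMb2 were lower in 2 of 3. Over all genes 29.6% were lower in 3 of 3 pairs, and 23% of members. With the code as a replicate block H2-Aa differed by -1.08 (limma adjusted p = 0.38), and without both arrays by -0.91 (limma adjusted p = 0.50). The omission of both arrays, here and below, was chosen after their values were seen. The transactivator Nlrc5 was not called on all arrays (-0.96, limma adjusted p = 0.18), and was called lower in GFP_Low without both arrays (-1.28, adjusted p = 0.030) and without GFP_High 3 alone (-1.45, adjusted p = 0.0081). Ciita was not called on all arrays (-1.13, limma adjusted p = 0.14), and was called lower in GFP_Low without GFP_High 3 (-1.55, adjusted p = 0.022) or without GFP_Low 3 (-1.68, adjusted p = 0.030), but not without both GFP_High 3 and GFP_Low 2 (-1.11, adjusted p = 0.073).

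In Villus all 3 arrays exceeded every other array for H2-Aa, H2-Ab1, Cd74, H2-DMb1, H2-DMb2 and Ciita. Against GFP_High, H2-DMb1 was called higher by 1.85 (SE 0.56, limma adjusted p = 0.014) and Ciita by 1.60 (SE 0.48, limma adjusted p = 0.012). H2-Aa was higher by 2.55 (SE 1.43, adjusted p = 0.17), which did not pass. Without GFP_High 3 and GFP_Low 2 the H2-Aa difference was 1.32 (limma adjusted p = 0.12) and that of Cd74 0.49 (adjusted p = 0.54). Against GFP_Low, H2-Aa and H2-Ab1 were called higher in Villus by 4.12 (SE 1.53, limma adjusted p = 0.044) and 3.67 (SE 1.30, limma adjusted p = 0.035). Leaving out 1 array moved H2-Aa to between 2.23 and 5.15 (adjusted p up to 0.21) and ended its call without any Villus array, hair follicle 3, GFP_Low 2, GFP_High 1 or GFP_High 4. The same omissions moved H2-Ab1 to between 2.46 and 4.43, and its call ended without any Villus array or GFP_Low 2 (adjusted p up to 0.16). The calls of H2-DMb1 and Ciita against GFP_High ended without Villus 2 (adjusted p = 0.060 and up to 0.054), and that of Ciita also without Villus 3. H2-Ea, the alpha chain of I-E, was flat, with 18.8 to 25 in hair follicle cells, 22.9 to 25.8 in Villus, 26.6 to 28.6 in GFP_Low and 23.5 to 27.1 in GFP_High. C57BL/6 mice carry a haplotype in which this gene is not expressed. H2-Oa and H2-Ob, which restrain H2-DM in B cells, stayed near the receptor level on all arrays. Of 18 measured genes of class II processing and transcription, 7 were called higher and 6 lower in Villus than in GFP_High. Of all genes 22.6% were called higher and 26.3% lower in that comparison. The cathepsins Ctss and Ctsl rose by 2.5 (SE 0.33) and 2.38 (SE 0.21), and Rfxank, a subunit of the complex that binds class II promoters, rose by 2.29 (SE 0.23).

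In hair follicle cells the class II genes were low by their medians. Against GFP_High the median difference was -2.68 for the class II chains and -1.22 for the accessory genes, against -0.06 over all genes. Of the chains 1 of 5 was called lower and of the accessory genes 2 of 6, where 29.1% of all genes were. The genes called were H2-DMa (log2 difference -3.84, SE 0.82, limma adjusted p = 0.0012), Cd74 (-3.42, SE 1.31, limma adjusted p = 0.044) and H2-Ab1 (-3.17, SE 1.22, limma adjusted p = 0.045). For Cd74 and H2-Ab1 the ranges overlapped through GFP_High 3. Their calls ended without hair follicle 1 or 3, any Villus array or GFP_High 1, 2 or 4 (adjusted p up to 0.18 and 0.16), and that of H2-Ab1 also without GFP_Low 1. Without GFP_High 3 and GFP_Low 2 the differences were -4.57 for Cd74 (limma adjusted p = 2.9e-05), -4.40 for H2-Ab1 (limma adjusted p = 9.3e-05) and -3.91 for H2-Aa (limma adjusted p = 0.00029), which was not called with them (-2.68, SE 1.43, adjusted p = 0.15). That omission was chosen after the low class II values of both arrays were seen, so these p-values are no independent support. Hair follicle 2 was the highest of its group for H2-Aa, H2-Ab1, H2-Eb1 and Cd74, with 348, 142, 186 and 71.8, against 28.3, 15.8, 13.6 and 7.4 on hair follicle 1 and 68.4, 19.3, 25.8 and 21.1 on hair follicle 3. It was not the highest for H2-DMb1 (23.2, against 26.5 on hair follicle 3) or H2-DMb2 (24.6, against 25.2). Cd207, the langerin of Langerhans cells, was 139 on hair follicle 2 and 9.4 and 13.5 on the other hair follicle arrays. The Langerhans cell list of 5 genes summed to 2046, 1645 and 2155 on hair follicle 1, 2 and 3, lowest on hair follicle 2. That sum is mostly Epcam, which epithelium also expresses. The part of Langerhans cells in the class II levels was not tested.

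Immune cell markers differed between the groups as well. In Villus 14 of 17 measured T cell and intraepithelial lymphocyte markers were called higher than in GFP_High, against 22.6% of all genes. The 17 markers summed to 2279 to 3373 in Villus and to 101 to 123 in hair follicle cells. Their sum was 99.4 to 119 in GFP_Low and 104 to 132 in GFP_High. In each GFP group 3 of the 17 were above the receptor level on every array. The lowest sums of these groups were on GFP_Low 2 (99.4) and GFP_High 3 (103.5). Ptprc, the CD45 antigen of all leukocytes, had 188, 167 and 113 in Villus and stayed below the receptor level on the other 10 arrays, and Cd3g had 133, 135 and 72.1. Villus 3 was the lowest Villus array for both. Of 17 macrophage and dendritic cell markers, 9 had a Villus mean above the receptor level and 5 a mean above it in GFP_Low and in GFP_High, against 4 in hair follicle cells. The list summed to 131 to 171 in hair follicle cells, 2521 to 2729.8 in Villus, 7992 to 13248 in GFP_Low and 2624 to 5076 in GFP_High. Lyz2, also a Paneth cell gene, made up most of it in the GFP groups. On GFP_High 3 the sum was 2624, against 4950 to 5076 on the other GFP_High arrays. On GFP_Low 2 it was 8985.5, between the other GFP_Low arrays. The 5 markers above the receptor level on every GFP array were Lyz2, Ctss, Cd14 (17.4 to 62.5 in GFP_Low, 23.4 to 125 in GFP_High), Cd68 (15.3 to 21.7 in GFP_Low, 11.3 to 36.5 in GFP_High) and Csf1r (10.7 to 16.2 in GFP_Low, 13.6 to 18.9 in GFP_High). In Villus Tyrobp had 56.3 to 68.8 and Fcer1g 28.8 to 61, and both lay below the receptor level on the other 10 arrays. The markers Itgam, Cx3cr1, Flt3, Aif1 and Fcgr1 lay below that level on all 13 arrays. Itgax was below it on all GFP arrays and at 10, 10.7 and 8.0 in Villus. Of 8 B and plasma cell markers, 3 had a Villus mean above that level, and the list summed to 633 to 913 in hair follicle cells, 1447 to 1802 in Villus, 1586 to 2566 in GFP_Low and 919.9 to 1288 in GFP_High. Most of that sum is Xbp1, which secretory epithelial cells also express, while Jchain had 95.5, 168 and 28.3 in Villus and lay below the receptor level elsewhere. The part of these cells in the levels of the members was not tested.

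The Ifit genes, members of which bind viral RNA, had the largest median difference of all roles between Villus and GFP_High (4.90). Ifit1bl1 had 10.6, 11.3 and 7.3 in hair follicle cells, 2669, 4263 and 2399 in Villus, 69.4, 104 and 45.1 in GFP_Low, and 13.3, 11.4, 27.6 and 16 in GFP_High. The 4 groups did not overlap. Villus exceeded GFP_High by 7.55 (SE 0.33, limma adjusted p = 2.1e-10), and GFP_Low exceeded GFP_High by 2.10 (SE 0.33, limma adjusted p = 0.00058). Ifit1 had 661, 981 and 678 in Villus. It was below the receptor level on all hair follicle and GFP_High arrays and reached 10.8 only on GFP_Low 2, so it was at least 96.2-fold higher in Villus than in GFP_High and in hair follicle cells. Ifit3 had 99.8, 117 and 102 in Villus and 5.6 to 6.5 in GFP_High, at least 13.4-fold higher in Villus, and Ifit1bl2 was at least 16.6-fold higher. Ifit3 was also called in GFP_Low against GFP_High (0.54, SE 0.15, limma adjusted p = 0.023), with 6.6, 10.9 and 8.7 against 5.6 to 6.5, close to the receptor level, and the call ended without GFP_Low 2 or 3 or GFP_High 1, 2 or 4 (adjusted p up to 0.099). Ifit2 was the exception, with 27.5, 38.3 and 11.9 in Villus and 6.4, 5.9, 20.5 and 14.1 in GFP_High, groups that overlapped (1.18, SE 0.44, limma adjusted p = 0.038, and up to 0.19 without Villus 1 or 2 or GFP_High 1 or 2). All 5 Ifit members were called higher in Villus against GFP_High and against GFP_Low, where 22.6% and 20.8% of all genes were. Ifit1, Ifit1bl1 and Ifit1bl2 are related copies, and whether their probe sets read each other was not tested.

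The guanylate-binding proteins, which attack membranes of intracellular microbes, were called higher in Villus than in GFP_High for 5 of 7 members. Of all genes 22.6% were called higher there. Gbp7 had 96.1, 119 and 112 in Villus, against 17.5, 21.0 and 24.1 in GFP_Low and 28.7, 21.8, 19.8 and 26.7 in GFP_High, and rose by 2.18 (SE 0.16, limma adjusted p = 3.8e-08) against GFP_High. Gbp10 rose by 2.60 (SE 0.24), with 44.0, 98.5 and 63.5 in Villus and 9.2 to 12 in GFP_High. Gbp2 had 17.9, 28.0 and 19.8 in Villus and lay below the receptor level on all other arrays, at least 2.72-fold lower there. Gbp4 and Gbp2b stayed below it everywhere.

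The Irf and Stat factors fell into distinct patterns. Irf7, which drives type I interferon genes and is itself induced by interferon, had 12.4, 9.3 and 10.5 in hair follicle cells, 164, 255 and 182 in Villus, 17.2, 24.7 and 17.9 in GFP_Low and 9.3, 10.1, 12.4 and 9.6 in GFP_High. It rose by 4.26 (SE 0.18, limma adjusted p = 1.8e-10) in Villus and by 0.94 (SE 0.18, limma adjusted p = 0.0029) in GFP_Low, both against GFP_High and without overlap. Irf8, known for its role in myeloid cells, was at 4.9, 5.0 and 5.1 in hair follicle cells and at 293, 306 and 231 in Villus, 191, 257 and 244 in GFP_Low and 199, 268, 227 and 201 in GFP_High. Hair follicle cells were at least 28.1-fold lower than GFP_High (limma adjusted p = 1.1e-12), while Villus and GFP_High were 0.30 apart (SE 0.15, adjusted p = 0.11). Of the 17 myeloid markers given above, Ctss, Cd14, Cd68, Csf1r and Lyz2, also a Paneth cell gene, were above the receptor level on every GFP array. Itgam, Itgax, Cx3cr1, Flt3, Aif1, Fcgr1, Tyrobp and Fcer1g lay below it on all GFP arrays. The part of myeloid cells in the Irf8 level was not tested. Irf1, Irf9 and Stat2, which joins Irf9 in the complex that binds ISRE sites, were higher in Villus than in GFP_High by 1.22 (SE 0.21), 1.5 (SE 0.17) and 3.09 (SE 0.21). Irf3, which sensors of viral RNA activate, was lower in Villus by 0.43 (log2 difference -0.43, SE 0.16, limma adjusted p = 0.045), a call that ended on leaving out 1 of 8 arrays (Villus 1 or 2, any GFP_Low array or GFP_High 1, 2 or 3; adjusted p up to 0.19).

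Stat3, the factor of interleukin 6 and interleukin 22, was called higher than in GFP_High in both hair follicle cells and Villus, as were H2-T23 and H2-Q4. Stat3 had 523, 359 and 425 in hair follicle cells, 370, 409.5 and 422 in Villus, 69.2, 129 and 99.7 in GFP_Low and 57.2, 47.7, 75.1 and 55.6 in GFP_High. Both exceeded GFP_High, by 2.89 (SE 0.21, limma adjusted p = 3.1e-08) in hair follicle cells and 2.78 (SE 0.21, limma adjusted p = 4.3e-08) in Villus, and differed from each other by 0.11 (SE 0.22, adjusted p = 0.72). GFP_Low exceeded GFP_High by 0.73 (SE 0.21, limma adjusted p = 0.027), with overlapping ranges, and the call ended without GFP_Low 2 or 3 or GFP_High 1, 2 or 4 (adjusted p up to 0.11). On a further, dimmer Stat3 probe set the differences from GFP_High were only 0.47 in hair follicle cells, 0.26 in Villus and 0.13 in GFP_Low. Socs3, a Stat3 target, was higher in hair follicle cells than in GFP_High by 3.69 (SE 0.38, limma adjusted p = 1.4e-06). In Villus, where Stat3 was also higher, Socs3 had 60.4, 47.3 and 27.3, within reach of the 36.9, 20, 59 and 51.4 in GFP_High. Stat6, the factor of interleukin 4, had 12.3, 9.9 and 9.4 in hair follicle cells, 59.8, 58.8 and 60 in Villus and 36.2, 43.7, 27.1 and 30.8 in GFP_High. Stat5a was the only other Stat called higher in hair follicle cells than in GFP_High (0.56, SE 0.16, limma adjusted p = 0.0083), and Stat5b was lower in Villus by 0.55 (log2 difference -0.55, SE 0.21, limma adjusted p = 0.044), which a further probe set did not show and which ended without any Villus array, hair follicle 1 or 3, GFP_Low 2 or GFP_High 2 or 3 (adjusted p up to 0.16). The Irf2-binding proteins, corepressors by their known role, ran against the Irf genes. Irf2bp2 had 364, 359 and 311 in hair follicle cells, 154, 168 and 162 in Villus, 265, 415 and 286 in GFP_Low and 555, 501, 604 and 500.1 in GFP_High, was the single member called lower in GFP_Low than in GFP_High (log2 difference -0.77, SE 0.15, limma adjusted p = 0.0029), and fell by 1.74 (SE 0.15) in Villus. All 3 of these genes were called lower in Villus than in GFP_High, where 26.3% of all genes were. Without them 38 of 58 members were called higher and 3 lower in that comparison.

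**Figure D3:**
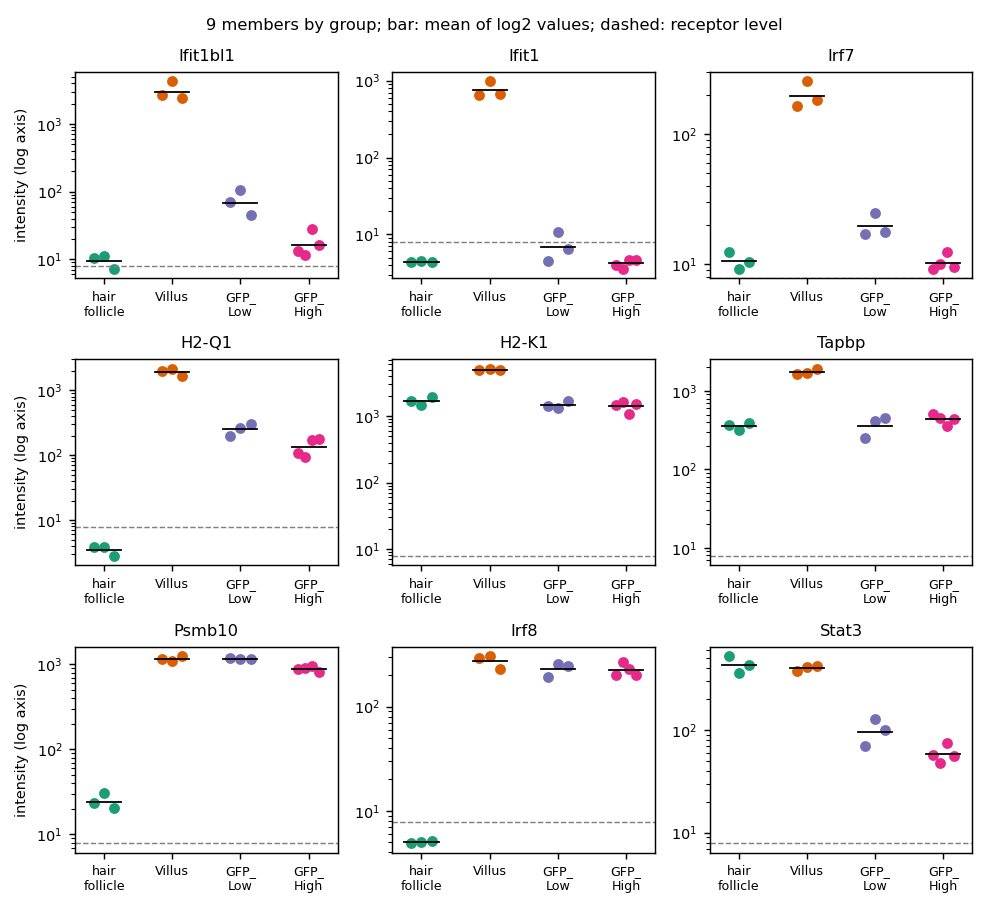
Intensity (log axis) of 9 members on every array by group (hair follicle, Villus, GFP_Low, GFP_High); bars are means of the log2 values and dashes mark the receptor level of 7.9. Ifit1bl1, Irf7 and H2-Q1 step up in GFP_Low and Villus, Psmb10, Irf8 and H2-Q1 are low in hair follicle cells alone, and Stat3 is high in hair follicle cells and Villus.

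The 5 measured interferon genes, Ifnb1, Ifng, Ifna1, Ifna2 and Ifna4, lay below the receptor level, except Ifna4 on GFP_Low 1 (8.8). No lambda interferon gene was among them. All 5 stayed uncalled in each comparison, with Villus minus GFP_High differences of -0.06 to 0.16. Of 15 receptor and signalling genes, 10 were called higher and 1 lower in Villus than in GFP_High. Of all genes 22.6% were called higher and 26.3% lower in this comparison. Usp18, which damps the type I interferon receptor, was at least 36.8-fold higher there, the lambda interferon receptor chain Ifnlr1 rose by 2.95 (SE 0.20) and the kinase Jak2 by 2.72 (SE 0.12). In hair follicle cells 6 of the 15 were called higher and 4 lower than in GFP_High, where 19.4% and 29.1% of all genes were. The median was 0.40, against -0.06 over all genes. The kinase Jak1 rose by 1.47 (SE 0.15), while the receptor chains Ifngr1 and Ifngr2 fell by 2.47 (SE 0.12) and 2.40 (SE 0.34). Of 13 sensors of nucleic acids, 10 were called higher in Villus than in GFP_High and none lower, and Zbp1 rose by 5.36 (SE 0.22). In GFP_Low 4 of the 13 were called higher than in GFP_High and 1 lower, against 6.32% and 10.4% of all genes. Of 41 other interferon-stimulated genes, 33 were called higher and 4 lower in Villus than in GFP_High. Oasl1 rose by 5.25 (SE 0.22) and Rsad2 by 5.17 (SE 0.23), while Ifitm2 and Ifitm3 fell by 5.69 (SE 0.22) and 5.62 (SE 0.41). Ifitm3, which blocks the entry of viruses, was also called lower in GFP_Low by 2.22 (log2 difference -2.22, SE 0.41, limma adjusted p = 0.002), with 553, 197 and 470.4 against 2233, 2148, 887 and 2117 in GFP_High. In hair follicle cells 24 of the 41 were called lower and 4 higher than in GFP_High, and the chemokine Cxcl10 had the largest rise among those 4, by 4.10 (SE 0.36).

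**Figure D4:**
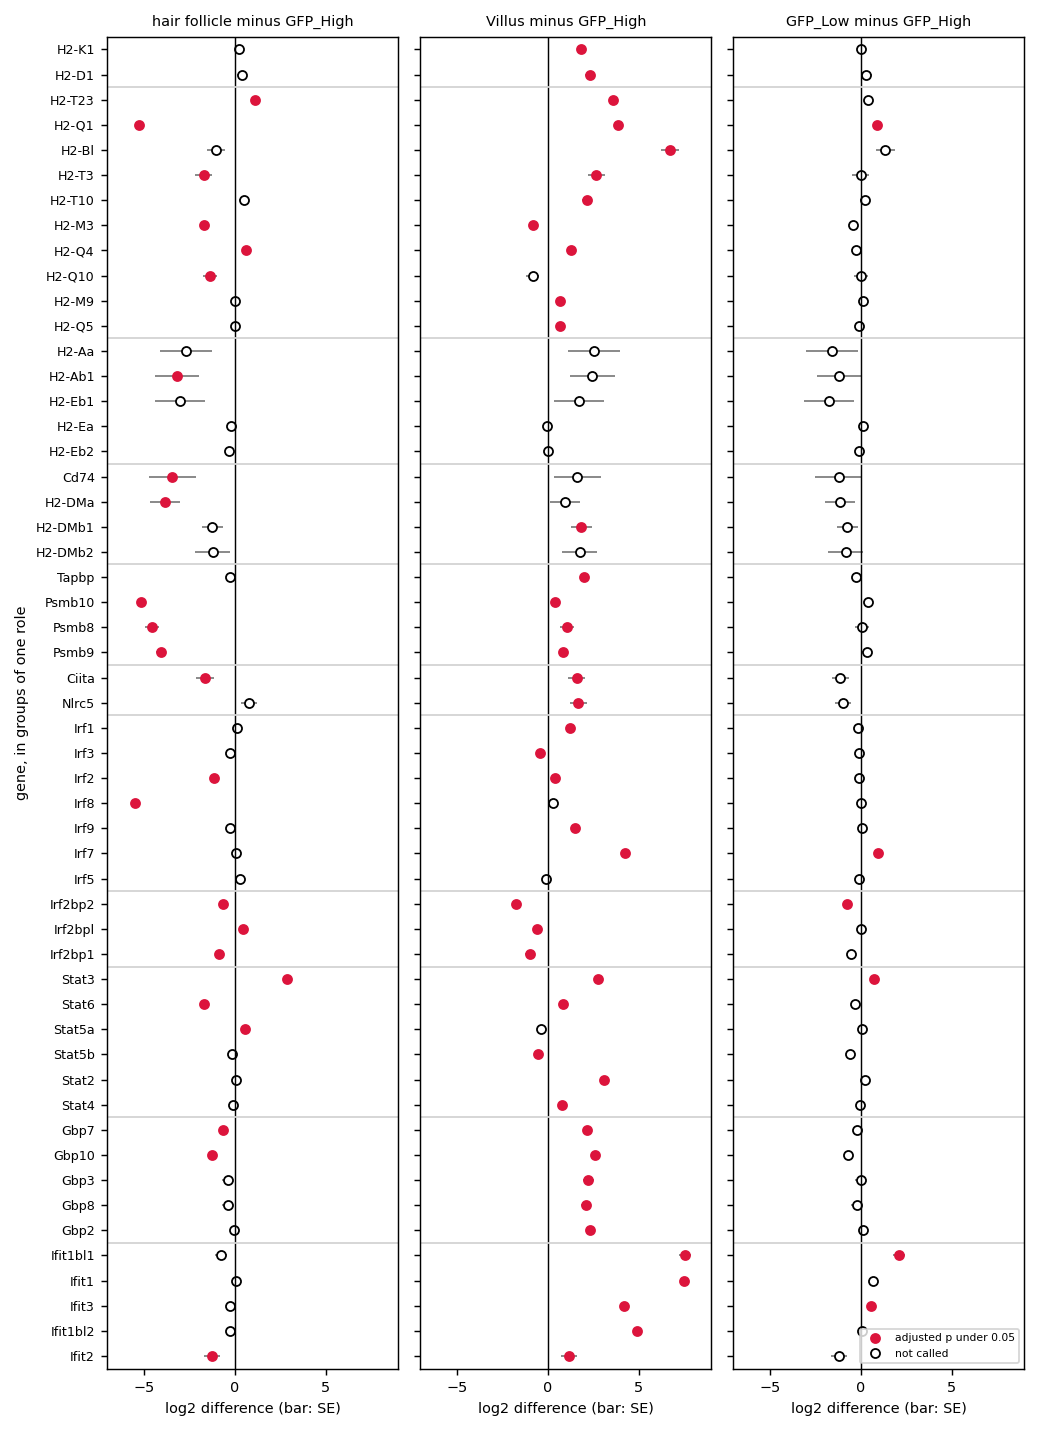
Log2 differences from GFP_High with SE (bars) of the 53 members above the receptor level, for hair follicle, Villus and GFP_Low; filled points were called at an adjusted p under 0.05. The wide bars belong to the class II genes, and most filled points lie right of 0 for Villus and left of 0 for hair follicle.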

How the data were processed

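RNA of 13 samples was hybridized to Affymetrix HT MG-430 PM arrays. The deposited intensities are linear values, made by the authors in Affymetrix Power Tools by RMA-sketch (background correction, normalization between arrays, 1 summary for each probe set). No source used here states the version. Intensities were taken to log2 and fitted with limma 3.58.1 (R 4.3.3) on all 4 groups, with Benjamini-Hochberg adjustment over 17097 genes; the fit was tested on simulated data. Array number limits the precision. Groups follow the titles, and p-values measure the spread between these arrays. Of 45141 probe sets, 28898 name 1 gene, 551 several and 15692 none in the table used. Members, lists and tests were chosen with earlier results of these data known. Genes were named as up to 10 members per direction with the largest called difference, the brightest 4 and up to 2 contrary ones per role, up to 3 called genes per list, and markers. GFP_Low and GFP_High arrays of one title code, which is in the labels, had residual correlations of 0.29, 0.32 and 0.45. Correlations between arrays of different codes were not computed, so these values cannot show that the code pairs the arrays. The replicate block covered the GFP arrays only. Promoter sequences are RefSeq, GRCm38.p6, and windows of members on chromosome 18 were left out. Alternatives were quantile normalization, an offset of 16, a filter, the mean of probe sets, 2 groups only, another prior, fewer arrays, a t-test of the methods and, chosen after seeing the data, omission of both arrays of one code. Figures were drawn with matplotlib 3.10.9.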

Additional observations from a re-analysis of the deposited data

Results flagged for a closer look

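In GFP_High, the only group of 4 arrays, 1 array stood far from the other 3 for 9 of 46 members tested (19.6%, against 5.5% of 10888 genes above the receptor level; chance flags about 1 in 20 groups). In all 9 it was GFP_High 3, and it was the lowest. On that array H2-Aa had an intensity of 43.3, H2-Ab1 24.6, H2-Eb1 19.5, Cd74 22.1, H2-DMa 21.7, H2-DMb1 15.4 and H2-DMb2 6.5. H2-T10, a non-classical heavy chain, had 32.6 and Nlrc5 had 4.1. The gap to the next array took 0.831 (H2-T10) to 0.922 (H2-Eb1) of the whole range on the log2 scale, above Dixon's 95% critical value for 4 samples. GFP_Low 2, from the same title code, is in a group of 3 and was not tested in this way.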

How the results depend on the processing

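Of the members called between Villus and GFP_High (38 higher), Villus and GFP_Low (36 higher) and hair follicle and Villus (4 higher, 43 lower), these counts stayed within 1.5 times of their values under each alternative. The t-test of the methods moved several smaller counts. At its threshold of 0.01 that test called 3 members lower in Villus than in GFP_High, 1 lower in Villus than in GFP_Low, and 3 higher and 11 lower in hair follicle than in GFP_High. After Benjamini-Hochberg it called 1 member lower in Villus than in GFP_Low, and 3 higher and 0 lower in GFP_Low than in GFP_High. Without the 3 arrays whose level field opposes the title, 1 member was higher and 2 were lower in GFP_Low. With the replicate block for the title code 2 were lower in GFP_Low, since Ifit2 (-1.48, limma adjusted p = 0.025) passed, and Psmb9 (0.52, adjusted p = 0.042) passed as higher. The block changed no other call. The lower count was also 2 with the filter on the receptor level, with the mean of all probe sets, with only the 2 groups, and, in an alternative chosen after seeing the data, without GFP_High 3 and GFP_Low 2. Leaving out 1 array gave 2 to 6 higher and 1 to 3 lower members in GFP_Low against GFP_High, 31 to 39 and 2 to 3 in Villus against GFP_Low, 30 to 38 and 4 to 6 in Villus against GFP_High, 4 to 5 and 16 to 23 in hair follicle against GFP_High, and 3 to 4 and 40 to 45 in hair follicle against Villus. The lowest count in GFP_Low, 2 higher, came without GFP_Low 3, and it was 3 without GFP_Low 2 or GFP_High 1, 2 or 4. H2-Ea turned to 0.37 in Villus against GFP_High under quantile normalization (adjusted p = 0.046). The cause was not tested. Values near the receptor level of 7.9 limit what can be read from 8 members.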

Other observations

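Molecules shaped like class I but outside the H2 names were also measured, 7 of them. Fcgrt, which carries antibodies across epithelium, had 46.2, 37.9 and 48.8 in hair follicle cells, 340.1, 429.5 and 466 in Villus, 74.0, 178 and 124 in GFP_Low and 39.5, 56.7, 76.9 and 42.9 in GFP_High. It rose by 2.97 (SE 0.28, limma adjusted p = 4.3e-07) in Villus and by 1.17 (SE 0.28, limma adjusted p = 0.0097) in GFP_Low, both against GFP_High. Cd1d1, which presents lipids, went the other way and fell by 1.09 (SE 0.25, limma adjusted p = 0.0083) in GFP_Low. Hfe, which takes part in iron sensing, fell by 1.04 (SE 0.23, limma adjusted p = 0.0013) in Villus. Of 8 probe sets that name several genes and were left out above, 5 name H2-K1 and H2-D1 together. The brightest of them had 968, 667 and 1355 in hair follicle cells, 3354, 3989 and 3023 in Villus, 1281, 682 and 942 in GFP_Low and 888, 940.0, 431 and 795 in GFP_High.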
